A study of Mus musculus with 21 samples.

Results

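The genes described here are 43 DNA repair genes measured by RNA sequencing in mouse hematopoietic stem cells (HSCs), chosen by symbol from the 21000 genes of the deposited count table. All 43 were found in the table, and all 43 passed the filter on low counts in each comparison. They comprise 10 genes of homologous recombination, 10 of the Fanconi anemia pathway, 4 of damage signalling, 2 of the Mre11-Rad50-Nbs1 (MRN) complex, 2 RecQ helicases, 2 of mismatch repair, 7 of base excision repair, 5 of end joining and 1 of nucleotide excision repair.

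Each pathway handles another kind of damage. Base excision repair removes single altered bases: a glycosylase takes out the base, a nuclease opens the strand, and ligation restores it. 5-Fluorouracil (5-FU) inhibits thymidylate synthase, which leads to uracil and fluorouracil in DNA, and the uracil glycosylases act on both. Mismatch repair corrects mispaired bases behind the replication fork. Homologous recombination copies an intact sister chromatid and therefore works in the S and G2 phases, whereas end joining seals broken ends directly in any phase. The Fanconi anemia proteins unhook crosslinks between strands, and loss of them causes bone marrow failure. Most HSCs in an unperturbed marrow are quiescent, and 5-FU, which kills cycling blood cells, drives the surviving HSCs into cycle.

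The question was how the pathways compare after 5-FU. HSCs were sorted from the bone marrow of wild type mice (CD150+ CD48- Lineage- Sca-1+ c-Kit+), with 3000 to 3500 cells per library and 3 libraries in each of 7 groups. Mice aged 10 weeks at the first administration were given PBS or 5-FU at 150 mg/kg into the peritoneum, either 1 time or 3 times at intervals of 21 days, and HSCs were isolated at day 6, counting the day of the last administration as day 1. These groups are called PBS once, 5-FU once, PBS 3 times and 5-FU 3 times. Mice given 3 administrations were thus older at isolation than those given 1, so age and the number of administrations cannot be told apart. HSCs were also isolated at day 21 after 5-FU once and after 5-FU 3 times, without a PBS group at that day. The old group holds freshly collected HSCs of mice aged 2 years, for which no administration is named. After 5-FU, the sorting gate early after treatment was widened to cells with dim c-Kit and the Mac-1 antibody was left out, so that the gate and the treatment cannot be told apart at day 6. In such bulk libraries, a change in the share of a kind of cell and a change in the RNA per cell cannot be told apart either.

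Total counts ranged from 22184885 to 38649033 per library (median 26962256), and 3 counts, taken as the floor, corresponded to 0.085 to 0.128 CPM, the count scaled to the normalized library size. All 11 HSC markers, among them Procr, Slamf1, Mecom and Hlf, had counts in every library. Their summed level at day 6 was 3286 to 3464 CPM after 5-FU once against 4087 to 4536 CPM after PBS once, and 2945 to 3008 against 3962 to 4280 CPM after 3 administrations, without overlap in either case. Single HSC markers went both ways, with 3 called higher and 2 lower after 5-FU once, and 1 higher and 4 lower after 5-FU 3 times. Of the markers of other blood cells, Cd3e and Il7r were at 0 in 20 of 21 libraries, Ctsg in 16 and Csf1r in 12. At day 6 the summed level of the 10 myeloid markers was 60.1 to 74.8 CPM after 5-FU once against 96.5 to 121.0 CPM after PBS once, and 53.1 to 75.8 against 89.6 to 119.9 CPM after 3 administrations. The 7 erythroid markers summed to 84.0 to 104.6 against 43.6 to 60.2 CPM and to 63.4 to 99.8 against 44.5 to 58.4 CPM. This list did not move as a whole. Of 5 erythroid markers tested, 1 was called higher and 1 lower after 5-FU once, with log2 fold changes from −3.03 to 2.69. After 5-FU 3 times, 3 of 5 were called higher and 1 lower. The 5 megakaryocyte markers summed to 34.1 to 43.2 against 112.6 to 137.3 CPM and to 80.5 to 86.4 against 115.6 to 128.6 CPM. The part of these marker levels in the results below was not tested. In the deposited table the 6 columns of PBS once and 5-FU once at day 6 end in a suffix of unstated meaning, absent from the remaining 15. Both groups share it in the comparison of 5-FU once with PBS once at day 6, whereas in comparisons that cross it the suffix and the group cannot be told apart.

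The members that rose after 1 as well as after 3 administrations of 5-FU were Chek1, Ung, Tdg and Xrcc5. Their promoter windows are shown because these genes passed the test in both experiments. The windows run from 250 bases before to 50 bases after the transcription start and were taken from RefSeq (GRCm38.p6), 5′ to 3′ on the strand of the gene: Chek1 at chr9:36726609-36726908 (minus strand), Ung at chr5:114130185-114130484 (plus strand), Tdg at chr10:82629588-82629887 (plus strand) and Xrcc5 at chr1:72307171-72307470 (plus strand). Capitals mark matches to 3 cell cycle promoter motifs searched on both strands: E2F sites (TTCCCGC, also TTCGCGC, also TTGCCGC, also TTGGCGC), the CCAAT box (CCAAT) and the cell cycle homology region (TTTGAA).
Chek1: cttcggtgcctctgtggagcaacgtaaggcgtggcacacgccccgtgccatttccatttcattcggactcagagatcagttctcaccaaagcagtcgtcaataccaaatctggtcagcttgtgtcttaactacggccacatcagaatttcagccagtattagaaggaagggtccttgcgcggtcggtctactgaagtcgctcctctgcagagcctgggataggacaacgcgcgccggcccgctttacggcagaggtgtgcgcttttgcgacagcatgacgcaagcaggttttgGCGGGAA
Ung: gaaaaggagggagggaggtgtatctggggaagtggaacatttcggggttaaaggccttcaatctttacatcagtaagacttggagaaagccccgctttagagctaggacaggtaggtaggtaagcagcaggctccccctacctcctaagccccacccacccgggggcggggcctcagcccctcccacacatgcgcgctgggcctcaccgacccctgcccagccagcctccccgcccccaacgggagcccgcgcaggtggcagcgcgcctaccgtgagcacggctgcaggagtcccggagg
Tdg: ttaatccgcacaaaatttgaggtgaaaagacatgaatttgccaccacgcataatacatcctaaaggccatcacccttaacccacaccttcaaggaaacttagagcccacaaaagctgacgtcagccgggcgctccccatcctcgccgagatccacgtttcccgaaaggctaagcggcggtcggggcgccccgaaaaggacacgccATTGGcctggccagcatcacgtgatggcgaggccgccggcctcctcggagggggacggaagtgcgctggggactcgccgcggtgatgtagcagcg
Xrcc5: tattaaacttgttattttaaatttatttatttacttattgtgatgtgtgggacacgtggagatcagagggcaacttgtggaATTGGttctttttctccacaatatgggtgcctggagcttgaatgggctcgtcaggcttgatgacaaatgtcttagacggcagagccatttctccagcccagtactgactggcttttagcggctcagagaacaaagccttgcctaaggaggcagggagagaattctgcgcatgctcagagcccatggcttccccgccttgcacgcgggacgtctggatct
The Chek1 window held 1 E2F match, on the antisense strand at positions 44 to 50 downstream of the start. Tdg held 1 CCAAT match at −45 to −41 and Xrcc5 1 at −169 to −165, both antisense, and none of the motifs was found in the Ung window. A match is a description of letters and not a binding site.

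Windows were present for 37 of the 43 members, all but Fancd2, Nbn, Prkdc, Rad50, Wrn and Xrcc2. A gene was counted as holding a motif where any of its windows did. An E2F match was found in 22 of the 37 (59.5%), against 19.5% of the 10297 genes with a window that were tested in the comparison of 5-FU 3 times with PBS 3 times and 10.9% of all 27025 genes with a window. Among the members that rose after 5-FU 3 times it was found in 11 of 17 (64.7%), and among the other members in 11 of 20 (55%). No test was made of these shares. CCAAT was found in 62.2% of the members against 43.7% of the genes tested, and TTTGAA in 5.41% against 14.8%.

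In HSCs of PBS once, the members covered a wide range of levels. Per kilobase of transcript, the highest were Xrcc1, the scaffold of single-strand break repair, at 58.4 ± 8.70 CPM per kb (SD, n = 3), Tdg, a glycosylase that removes thymine or uracil from mispairs with guanine, at 46.2 ± 2.59, and Xrcc5, a subunit of the Ku heterodimer that binds broken ends, at 38.5 ± 6.07. Rad52, which anneals single strands, and Rad54l, a translocase that helps strand invasion, followed at 37.1 ± 3.46 and 32.8 ± 7.99 CPM per kb. The lowest were Rad51c at 1.21 ± 0.308, Lig4, the ligase of end joining, at 0.863 ± 0.822, and Bard1, the partner of Brca1, at 0.355 ± 0.0680 CPM per kb. High and low members occurred within the same pathway, as Rad52 and Bard1 in homologous recombination or Xrcc5 and Lig4 in end joining. Most neighbours in the order overlapped in their libraries. The steps without overlap were those from Nbn to Rad50, Rad50 to Brca2, Atm to Brca1 and Prkdc to Rad51c.

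**Figure D1:**
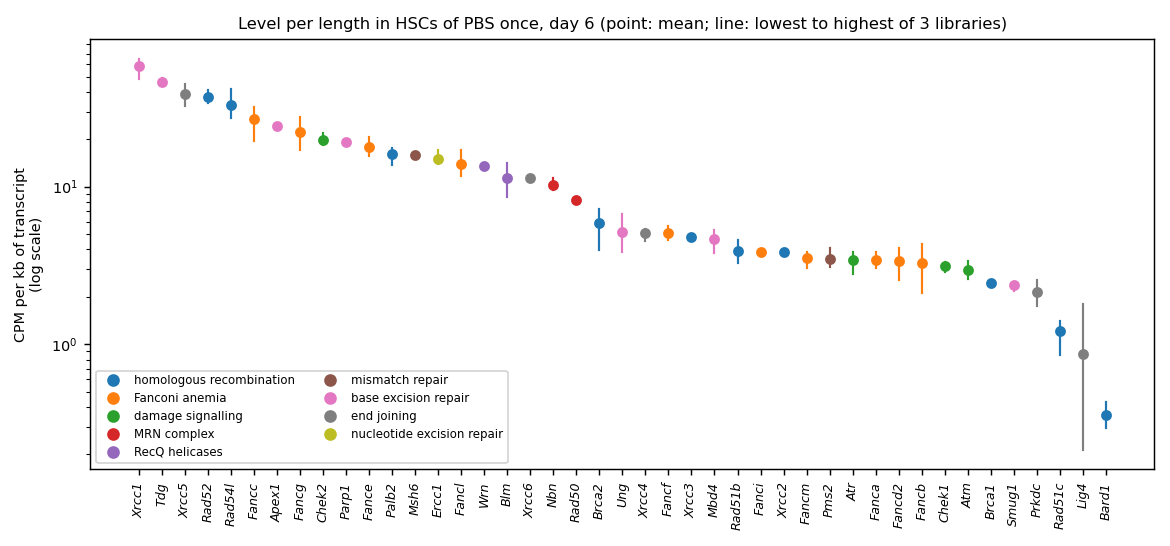
Level of each member per kilobase of transcript (CPM per kb, log scale) in the 3 libraries of PBS once at day 6, ordered from high to low and coloured by pathway; points are means and lines run from the lowest to the highest library. The members run from Xrcc1 at 58.4 to Bard1 at 0.355 CPM per kb, and the pathways are mixed along the order.

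Some levels rest on shared sequence. Of the Tdg transcript, 84.8% is nearly identical to 3 copies elsewhere in the genome (Gm5597, Gm9855 and Tdg-ps), which have no row of their own in the table, so that reads of Tdg may have been counted or lost at these sites. Of the exons of Apex1, the nuclease that cuts at abasic sites, 61.7% overlap Pip4p1 on the opposite strand. Rad54l, Fanci, Fancc, Fancf, Fancl and Fanca share 10.5% to 18.6% of their exons with other genes. Whether the counting used the strand is not given in the sources used here, so reads in these parts cannot be assigned to one gene with certainty.

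After 5-FU once, 6 of the 43 members passed the threshold at day 6 (14.0%), beside 22.2% of all 12759 genes tested (11.5% higher and 10.6% lower). The members that rose were Chek1, Ung, Tdg and Xrcc5, and those that fell were Rad52 and Fancg. By pathway, 2 of 7 base excision repair genes rose, 1 of 4 in damage signalling and 1 of 5 in end joining. In homologous recombination and the Fanconi pathway together, 2 of 20 passed and both fell. No member of mismatch repair, the MRN complex, the RecQ helicases or nucleotide excision repair passed. The median log2 fold change of the members was 0.15, with 29 of 43 above 0, beside a median of 0.00 for all genes tested. Here and below, adjusted p-values come from the edgeR quasi-likelihood test, corrected over all genes tested by the method of Benjamini and Hochberg.

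**Figure D2:**
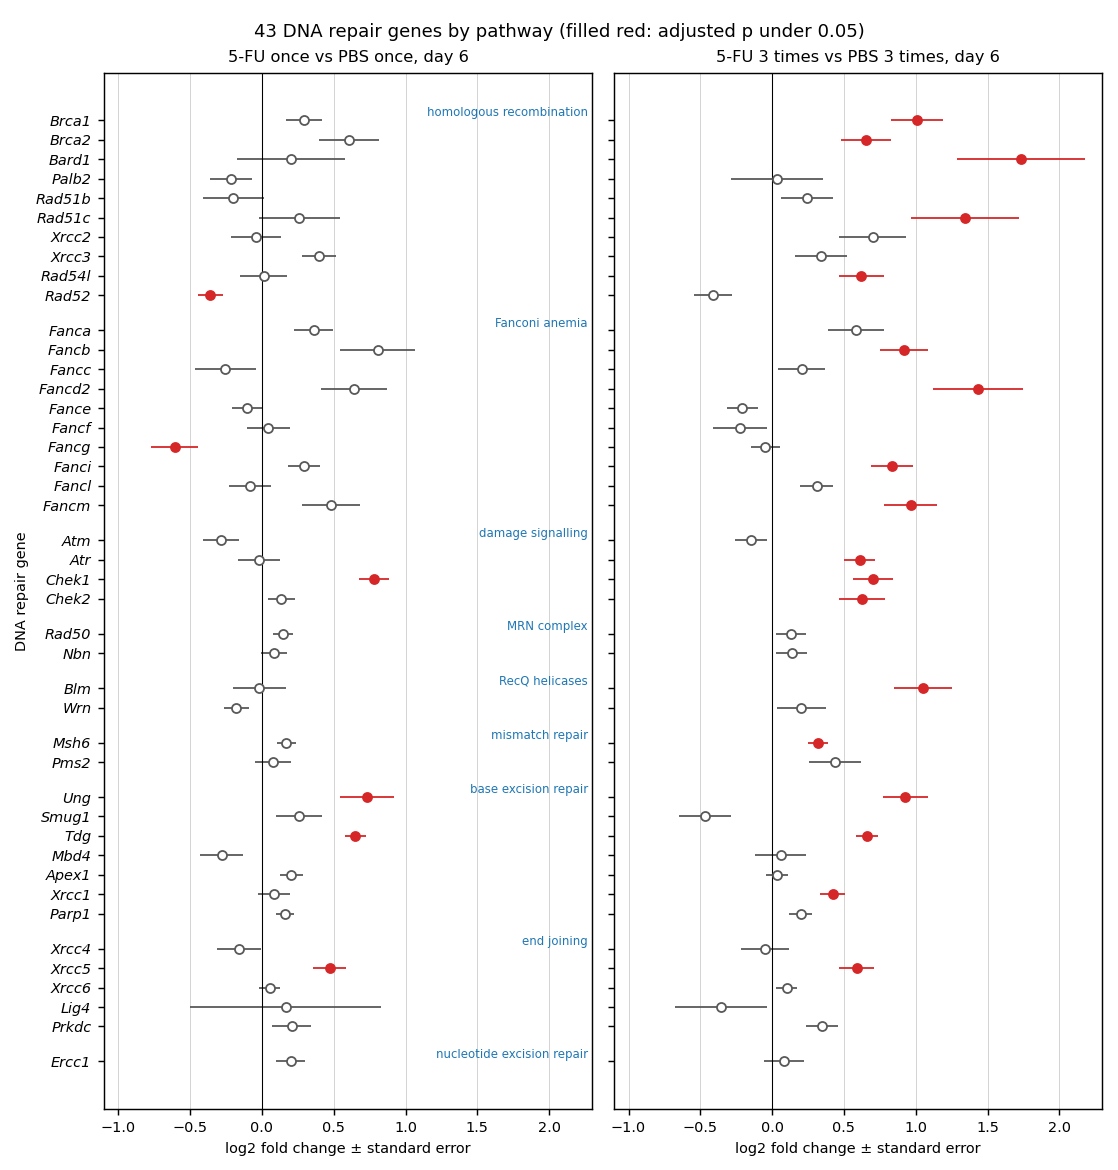
Log2 fold change ± standard error (x axis) of the 43 members (y axis, grouped by pathway) at day 6 after 5-FU once against PBS once (left) and after 5-FU 3 times against PBS 3 times (right), 3 libraries per group; filled red points passed an adjusted p of 0.05. On the left 6 points are filled, 4 to the right of 0 and 2 to the left; on the right 18 are filled, all to the right of 0.

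The base excision repair genes that rose were glycosylases of uracil. Ung, the main uracil glycosylase of replicating DNA, was at 14.3, 10.7 and 8.26 CPM in the PBS once libraries and at 17.6, 19.3 and 18.7 CPM in the 5-FU once libraries. All 5-FU libraries lay above all PBS libraries, and the log2 fold change was 0.73 ± 0.19 (SE, adjusted p = 0.0325). The call missed the threshold in 5 of the 6 fits that left out 1 library, all but the fit without PBS replicate 1 (adjusted p up to 0.0909). Such fits hold fewer libraries, so a lost call does not single out 1 of them. Tdg was at 171.4, 160.4 and 153.4 CPM after PBS and 241.2, 269.7 and 255.9 CPM after 5-FU, again without overlap. Its log2 fold change was 0.65 ± 0.07 (SE, adjusted p = 0.00246), and it passed in each of the 6 fits that left out 1 library (adjusted p up to 0.0124). The other glycosylases gave no call: the log2 fold change was 0.26 (adjusted p = 0.28) for Smug1, which removes uracil and its oxidized forms, and −0.28 (adjusted p = 0.221) for Mbd4, which acts on mispairs at methylated CpG sites. Downstream of the glycosylases, Apex1 had 0.20 (adjusted p = 0.105), Parp1, the sensor of nicks, 0.16 (adjusted p = 0.115), and Xrcc1 0.09 (adjusted p = 0.616). For Apex1 and Parp1 the 3 libraries of 5-FU lay above the 3 of PBS without passing the test.

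Chek1, the checkpoint kinase downstream of Atr, had the largest change among the calls. It was at 12.6, 10.9 and 12.1 CPM after PBS once and at 22.2, 18.8 and 20.5 CPM after 5-FU once, without overlap. The log2 fold change was 0.78 ± 0.11 (SE, adjusted p = 0.00412), and it passed in each of the 6 fits that left out 1 library (adjusted p up to 0.0158). The kinases above it gave −0.02 (adjusted p = 0.937) for Atr, which responds to stalled forks, and −0.28 (adjusted p = 0.149) for Atm, which responds to double-strand breaks, and Chek2, downstream of Atm, gave 0.13 (adjusted p = 0.329). None of these passed. Xrcc5, in end joining, was at 83.0, 98.0 and 114.0 CPM after PBS and 139.5, 136.4 and 135.6 CPM after 5-FU. The groups did not overlap, the log2 fold change was 0.47 ± 0.11 (SE, adjusted p = 0.0268), and it missed the threshold without 5-FU replicate 1, 5-FU replicate 2, 5-FU replicate 3 or PBS replicate 2 (adjusted p up to 0.074). Xrcc6, the other Ku subunit, had 0.05 (adjusted p = 0.636), and Prkdc, the kinase that Ku recruits, 0.21 (adjusted p = 0.309). Xrcc4, the partner of Lig4, had −0.16 (adjusted p = 0.486), and Lig4 itself, at 0.863 CPM per kb in PBS once, 0.17 (adjusted p = 0.881).

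The calls below 0 were in homologous recombination and the Fanconi pathway. Rad52 was at 61.4, 57.7 and 69.2 CPM after PBS once and 49.6, 48.7 and 49.4 CPM after 5-FU once, with every 5-FU library below every PBS library. Its log2 fold change was −0.36 ± 0.09 (SE, adjusted p = 0.0254), and it missed the threshold in 5 of the 6 fits that left out 1 library, all but the fit without PBS replicate 2 (adjusted p up to 0.0766). Fancg, of the Fanconi core complex, was at 76.4, 47.6 and 60.6 CPM after PBS and 40.4, 42.2 and 39.2 CPM after 5-FU, also without overlap. For Fancg the log2 fold change was −0.61 ± 0.16 (SE, adjusted p = 0.0362), and it missed the threshold in 5 of the 6 fits that left out 1 library, all but the fit without PBS replicate 2 (adjusted p up to 0.0975). Brca2, a mediator of strand exchange, had the largest value in homologous recombination, at 42.4, 69.9 and 77.8 CPM after PBS and 88.0, 99.1 and 103.8 CPM after 5-FU, for a log2 fold change of 0.61 ± 0.21 (SE, adjusted p = 0.0763). Fancb, of the core complex, had the largest in its pathway, at 6.34, 12.9 and 10.1 CPM after PBS and 21.1, 15.0 and 15.5 CPM after 5-FU, with 0.81 ± 0.26 (SE, adjusted p = 0.0638). Both were higher in every 5-FU library without passing the test. Over the 20 genes of both pathways the median log2 fold change was 0.12, from −0.61 to 0.81.

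In the small groups, Rad50 was at 41.0, 41.1 and 44.4 CPM after PBS once and 46.3, 48.0 and 46.4 CPM after 5-FU once (0.15, adjusted p = 0.181). Wrn, a RecQ helicase, was at 87.4, 88.0 and 79.6 CPM after PBS and 83.5, 74.0 and 69.3 CPM after 5-FU (−0.18, adjusted p = 0.194). Msh6, which recognizes mismatches, was at 64.5, 68.4 and 68.4 CPM after PBS and 76.0, 76.1 and 75.9 CPM after 5-FU (0.17, adjusted p = 0.0994). These are log2 fold changes from the same test. Ercc1, which cuts DNA beside a lesion together with Ercc4, was at 19.0, 23.6 and 19.6 CPM after PBS and 24.2, 23.9 and 23.7 CPM after 5-FU (0.20, adjusted p = 0.198). Rad50, Msh6 and Ercc1 did not overlap between the groups, and Wrn did. In all, 15 of 43 members were without overlap, 13 higher and 2 lower after 5-FU, beside 43.8% of all genes tested (24.0% higher and 19.8% lower).

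The count of calls moved with single libraries: 2 members passed without 5-FU replicate 2, 3 without 5-FU replicate 3 and 3 without PBS replicate 3. The share of all genes called in those fits, which hold fewer libraries, is not given. The fall in the count is therefore not a result about the members. Without a normalization factor the calls of all genes were 41.0% higher rather than 52.0%, while the 4 rises and 2 falls among the members remained the same 6 genes.

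After 5-FU 3 times, 18 of the 43 members passed at day 6 (41.9%), all higher, beside 18.1% of the 12729 genes tested, or 9.84% in that direction. The members were 5 of 10 in homologous recombination, 4 of 10 in the Fanconi pathway, 3 of 4 in damage signalling, 1 of 2 RecQ helicases, 1 of 2 in mismatch repair, 3 of 7 in base excision repair and 1 of 5 in end joining. Neither gene of the MRN complex passed, nor did Ercc1. The median log2 fold change was 0.34 over the members, with 35 of 43 above 0, and −0.01 over all genes tested. It was 0.60 over the 20 genes of homologous recombination and the Fanconi pathway, 0.20 in base excision repair and 0.10 in end joining. The libraries did not overlap for 26 members, 24 higher and 2 lower, beside 40.3% of all genes (22.5% higher and 17.8% lower).

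In homologous recombination, Brca1, the ubiquitin ligase that steers breaks towards recombination, was at 13.8, 9.12 and 13.5 CPM after PBS 3 times and 21.0, 27.1 and 26.3 CPM after 5-FU 3 times. The groups did not overlap, the log2 fold change was 1.01 ± 0.18 (SE, adjusted p = 0.0125), and it passed in each of the 6 fits that left out 1 library (adjusted p up to 0.0467). Bard1 was at 1.42, 0.807 and 0.889 CPM after PBS and 4.61, 3.48 and 2.44 CPM after 5-FU, low levels with at least 25 counts in each library. All 5-FU libraries were above all PBS libraries, with the largest log2 fold change of the members, 1.73 ± 0.44 (SE, adjusted p = 0.0367), but it missed the threshold in each of the 6 fits that left out 1 library (adjusted p from 0.0534 to 0.129). Rad51c was at 4.50, 1.89 and 2.31 CPM after PBS and 9.57, 6.09 and 6.74 CPM after 5-FU, without overlap (1.34 ± 0.38 SE, adjusted p = 0.0489). Rad51c missed the threshold in 5 of the 6 fits that left out 1 library, all but the fit without PBS replicate 1 (adjusted p up to 0.141). Brca2 was at 56.9, 77.6 and 47.6 CPM after PBS and 100.5, 89.0 and 101.5 CPM after 5-FU without overlap (0.65 ± 0.18 SE, adjusted p = 0.0431), and it missed the threshold in 5 of the 6 fits that left out 1 library, all but the fit without PBS replicate 2 (adjusted p up to 0.122). Rad54l was at 92.8, 83.5 and 96.3 CPM after PBS and 139.0, 113.1 and 172.9 CPM after 5-FU without overlap (0.62 ± 0.16 SE, adjusted p = 0.0357), and it missed the threshold in 5 of the 6 fits that left out 1 library, all but the fit without 5-FU replicate 2 (adjusted p up to 0.1). These 5 genes were all higher in each 5-FU library than in any PBS library.

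Of the other genes of this pathway, Xrcc2 also stood apart in its libraries, its log2 fold change being 0.70 (adjusted p = 0.0844). Rad51b and Xrcc3 had 0.24 (adjusted p = 0.4) and 0.34 (adjusted p = 0.24). Palb2, which bridges Brca1 and Brca2, had 0.03 (adjusted p = 0.952). Rad52 was the exception in direction, at 68.2, 57.1 and 51.2 CPM after PBS 3 times and 39.3, 49.0 and 46.5 CPM after 5-FU 3 times. Its groups did not overlap, with 5-FU lower, and its log2 fold change of −0.41 ± 0.13 (SE, adjusted p = 0.075) did not pass.

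In the Fanconi pathway, the dimer that is ubiquitinated at crosslinks rose in both subunits. Fancd2 was at 17.3, 8.999 and 23.2 CPM after PBS 3 times and 39.2, 42.9 and 53.1 CPM after 5-FU 3 times, and Fanci at 17.8, 13.7 and 14.0 CPM after PBS and 24.2, 26.6 and 31.6 CPM after 5-FU. Neither overlapped between the groups, and the log2 fold changes were 1.43 ± 0.31 (SE, adjusted p = 0.0231) and 0.84 ± 0.15 (SE, adjusted p = 0.0109). Fancd2 missed the threshold without 5-FU replicate 2, 5-FU replicate 3 or PBS replicate 1 (adjusted p up to 0.075), whereas Fanci passed in each of the 6 fits that left out 1 library (adjusted p up to 0.0408). Fancm, the translocase that anchors the core complex at forks, was at 28.8, 23.3 and 17.0 CPM after PBS and 48.0, 40.8 and 48.1 CPM after 5-FU (0.96 ± 0.19 SE, adjusted p = 0.0155), and it missed the threshold without 5-FU replicate 3 (adjusted p up to 0.0554). Fancb was at 9.74, 9.19 and 11.0 CPM after PBS and 17.7, 16.2 and 23.5 CPM after 5-FU (0.92 ± 0.16 SE, adjusted p = 0.012), and it passed in each of the 6 fits that left out 1 library (adjusted p up to 0.0407). In both genes every 5-FU library exceeded every PBS library. The rest of the core complex gave no call: the log2 fold change was 0.58 (adjusted p = 0.0844) for Fanca, 0.31 (adjusted p = 0.109) for Fancl, its ubiquitin ligase, 0.21 (adjusted p = 0.429) for Fancc, −0.05 (adjusted p = 0.79) for Fancg, −0.21 (adjusted p = 0.23) for Fance and −0.22 (adjusted p = 0.457) for Fancf.

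Damage signalling rose in 3 of its 4 kinases. Atr was at 21.0, 19.7 and 18.7 CPM after PBS 3 times and 30.2, 27.4 and 34.5 CPM after 5-FU 3 times, without overlap, at a log2 fold change of 0.61 ± 0.11 (SE, adjusted p = 0.012), and it passed in each of the 6 fits that left out 1 library (adjusted p up to 0.0429). Chek1 was at 11.3, 11.6 and 12.7 CPM after PBS and 20.1, 16.1 and 22.3 CPM after 5-FU (0.70 ± 0.14 SE, adjusted p = 0.0168), and it missed the threshold without 5-FU replicate 3, PBS replicate 1 or PBS replicate 2 (adjusted p up to 0.0544). Chek2 was at 47.0, 36.8 and 51.8 CPM after PBS and 83.7, 61.5 and 67.1 CPM after 5-FU (0.63 ± 0.16 SE, adjusted p = 0.039), and it missed the threshold in 5 of the 6 fits that left out 1 library, all but the fit without 5-FU replicate 2 (adjusted p up to 0.0934). Both kinases were higher in every 5-FU library. Atm had a log2 fold change of −0.15 (adjusted p = 0.414). The MRN genes Rad50 and Nbn, which sense breaks for Atm, had 0.13 (adjusted p = 0.427) and 0.14 (adjusted p = 0.425). Blm, the RecQ helicase that dissolves joined DNA strands, was at 40.4, 31.9 and 38.0 CPM after PBS and 66.2, 63.0 and 102.4 CPM after 5-FU, without overlap. The log2 fold change of Blm was 1.05 ± 0.20 (SE, adjusted p = 0.0154), and it passed in each of the 6 fits that left out 1 library (adjusted p up to 0.0482). Wrn had 0.20 (adjusted p = 0.456).

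In base excision repair, Ung was at 9.10, 11.8 and 8.11 CPM after PBS 3 times and 19.6, 16.9 and 19.6 CPM after 5-FU 3 times, and Tdg at 185.0, 181.7 and 198.5 CPM after PBS and 291.1, 295.9 and 319.4 CPM after 5-FU. Neither overlapped. The log2 fold changes were 0.93 ± 0.16 (SE, adjusted p = 0.0101) and 0.66 ± 0.07 (SE, adjusted p = 0.00324), and both passed in each of the 6 fits that left out 1 library. Xrcc1 was at 141.2, 129.8 and 143.3 CPM after PBS and 170.1, 200.6 and 192.0 CPM after 5-FU (0.42 ± 0.09 SE, adjusted p = 0.0202), and it missed the threshold without 5-FU replicate 2, 5-FU replicate 3, PBS replicate 1 or PBS replicate 2 (adjusted p up to 0.0631). Smug1 was lower in each 5-FU library, but its log2 fold change of −0.47 (adjusted p = 0.121) did not pass. Mbd4, Apex1 and Parp1 had 0.06 (adjusted p = 0.848), 0.04 (adjusted p = 0.777) and 0.20 (adjusted p = 0.136). In mismatch repair, Msh6 was at 55.9, 55.3 and 57.7 CPM after PBS and 71.6, 69.7 and 72.5 CPM after 5-FU (0.32 ± 0.07 SE, adjusted p = 0.0243), and it missed the threshold in each of the 6 fits that left out 1 library (adjusted p from 0.0508 to 0.0749). The other mismatch repair gene, Pms2, which nicks the strand to be corrected, had 0.44 (adjusted p = 0.145).

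In end joining, Xrcc5 was at 88.3, 103.8 and 87.7 CPM after PBS 3 times and 138.1, 126.9 and 161.6 CPM after 5-FU 3 times, without overlap. Its log2 fold change was 0.59 ± 0.12 (SE, adjusted p = 0.0179), and it missed the threshold without PBS replicate 1 or PBS replicate 3 (adjusted p up to 0.0598). Its partner Xrcc6 had 0.10 (adjusted p = 0.378), Prkdc 0.34 (adjusted p = 0.077), Xrcc4 −0.05 (adjusted p = 0.862) and Lig4 −0.35 (adjusted p = 0.486). Xrcc6 and Prkdc were also higher in every 5-FU library, without passing the test. Whether Xrcc5 and Xrcc6 differed in their change was not tested. Ercc1 was at 23.4, 21.8 and 27.8 CPM after PBS and 22.9, 30.6 and 24.9 CPM after 5-FU (0.08, adjusted p = 0.725).

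**Figure D3:**
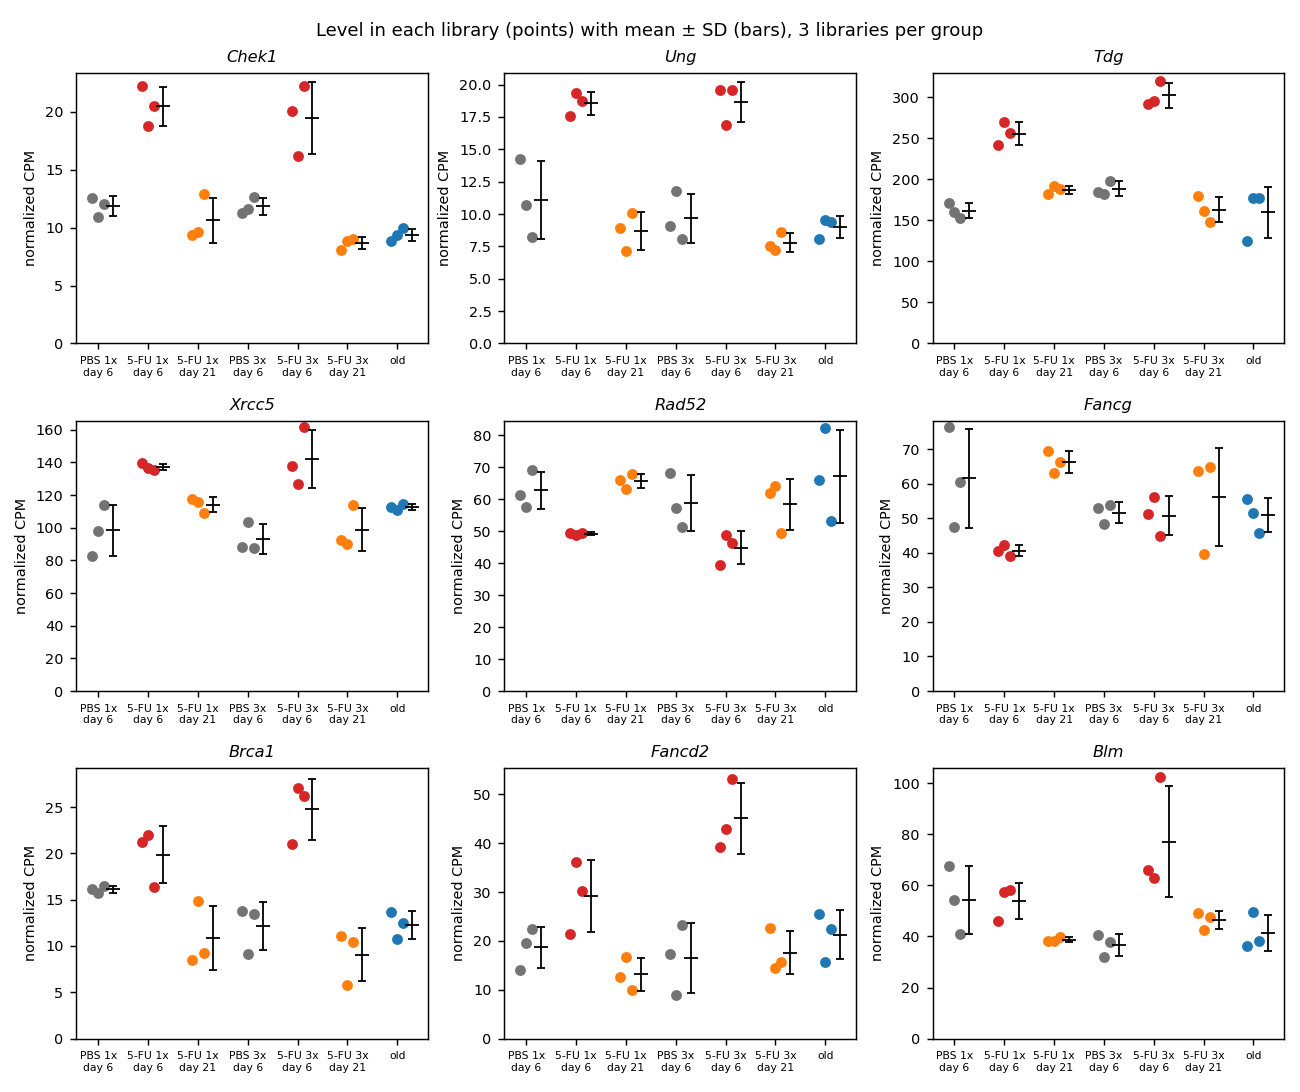
Normalized CPM (y axis, from 0) of 9 members in each of the 21 libraries (points) with the mean ± SD beside them, by group; 1x and 3x give the number of administrations. Chek1, Ung, Tdg and Xrcc5 are high in both 5-FU groups at day 6, Rad52 is low in both 5-FU groups at day 6 and Fancg after 5-FU once, and Brca1, Fancd2 and Blm are highest after 5-FU 3 times.

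The total of calls after 5-FU 3 times was 8 without 5-FU replicate 3, 9 without PBS replicate 1, and 11 without PBS replicate 2 or PBS replicate 3. Here too the share of all genes called in those fits is not given, so the fall is not a result about the members. Without a normalization factor 13 members were called higher and 1 lower, and the calls of all genes were 35.6% higher rather than 54.2%.

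The calls of both day 6 experiments shared 4 genes, Chek1, Ung, Tdg and Xrcc5, which are 4 of the 6 called after 5-FU once and 4 of the 18 called after 5-FU 3 times. The 2 experiments share no library. The sign of the log2 fold change was the same in 31 of 43 members, 26 above 0 and 5 below, and 33 had a larger value after 3 administrations. Whether the response to 5-FU depended on how often it was given was tested directly, as an interaction over the libraries of the 4 day 6 groups. No member passed in edgeR (background 0.650% of 13227 genes). An unadjusted p under 0.05 was found in 12 of 43 members, beside 1954 of the 13227 genes. DESeq2 called 1 member, and the share of all genes it called is not given here. The lowest adjusted p was that of Blm, with an interaction of 1.08 ± 0.30 (SE, adjusted p = 0.116). Blm was at 67.5, 54.2 and 41.0 CPM after PBS once and 45.9, 57.5 and 58.3 CPM after 5-FU once, where the groups overlapped. Bard1, Brca1 and Atr had interactions of 1.54 (adjusted p = 0.2), 0.73 (adjusted p = 0.167) and 0.64 (adjusted p = 0.144), and Chek1, Ung and Tdg of −0.07 (adjusted p = 0.901), 0.21 (adjusted p = 0.77) and 0.02 (adjusted p = 0.948). It was therefore not shown that any member responded differently after 3 administrations than after 1. The median interaction was 0.46 over the 20 members of homologous recombination and the Fanconi pathway, but 0.10 over the 26 further genes of these pathways. It was 0.05 in base excision repair, 0.12 in end joining and 0.00 over all genes tested. Among genes of the cell cycle it was 0.61 in G2 and M phase, with 4 of 20 genes called, and 0.23 in S phase, with 0 of 27 called.

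Genes of the cell cycle moved along with the repair genes. Of 27 genes of S phase, among them the Mcm helicase, Pcna and Tyms, 21 rose after 5-FU once (median log2 fold change 0.42) and 26 after 5-FU 3 times (0.72). Of 20 genes of G2 and M phase, such as Mki67 and Cdk1, 11 rose after 5-FU once (0.36) and 20 after 5-FU 3 times (0.88). The summed S phase level was 2688 to 2804 CPM after PBS once, 3737 to 4190 after 5-FU once, 2396 to 2767 after PBS 3 times and 4037 to 4669 after 5-FU 3 times. The G2 and M sums were 973.7 to 1042, 1250 to 1333, 756.1 to 1003 and 1710 to 2037 CPM in the same order. Neither list overlapped between 5-FU and PBS in its sums, and their part in the change of the repair genes was not tested. Of 13 p53 targets tested, 4 rose and 1 fell after 5-FU once, and 1 rose and 3 fell after 5-FU 3 times.

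Relative to the mean of the 6 PBS libraries on the log2(CPM + 0.5) scale, the median of the 10 homologous recombination genes was 0.35, 0.30 and 0.19 in the libraries of 5-FU once and 0.49, 0.46 and 0.65 in those of 5-FU 3 times. The 10 Fanconi genes had medians of 0.12, 0.12 and 0.20 and 0.49, 0.38 and 0.54. In base excision repair the medians were 0.25, 0.20 and 0.23 and then 0.10, 0.15 and 0.19. In end joining they were 0.26, 0.21 and 0.07 and 0.07, 0.14 and 0.17. The medians of these 10 homologous recombination and 10 Fanconi genes were thus higher in each library of 5-FU 3 times than in any of 5-FU once. That did not extend to the 26 further genes of both pathways, whose medians overlapped, at 0.31, 0.40 and 0.27 after 5-FU once and 0.37, 0.31 and 0.51 after 5-FU 3 times. The medians of the 7 base excision repair genes lay lower in each library of 5-FU 3 times than in any of 5-FU once, but narrowly (0.189 against 0.196 at the nearest). The summed level of the same 7 genes lay higher instead, at 611.3 to 667.6 CPM against 557 to 593 CPM. Against the matched PBS group their median log2 fold change was 0.20 in both. The medians of end joining overlapped. The difference between the pathways was not tested.

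**Figure D4:**
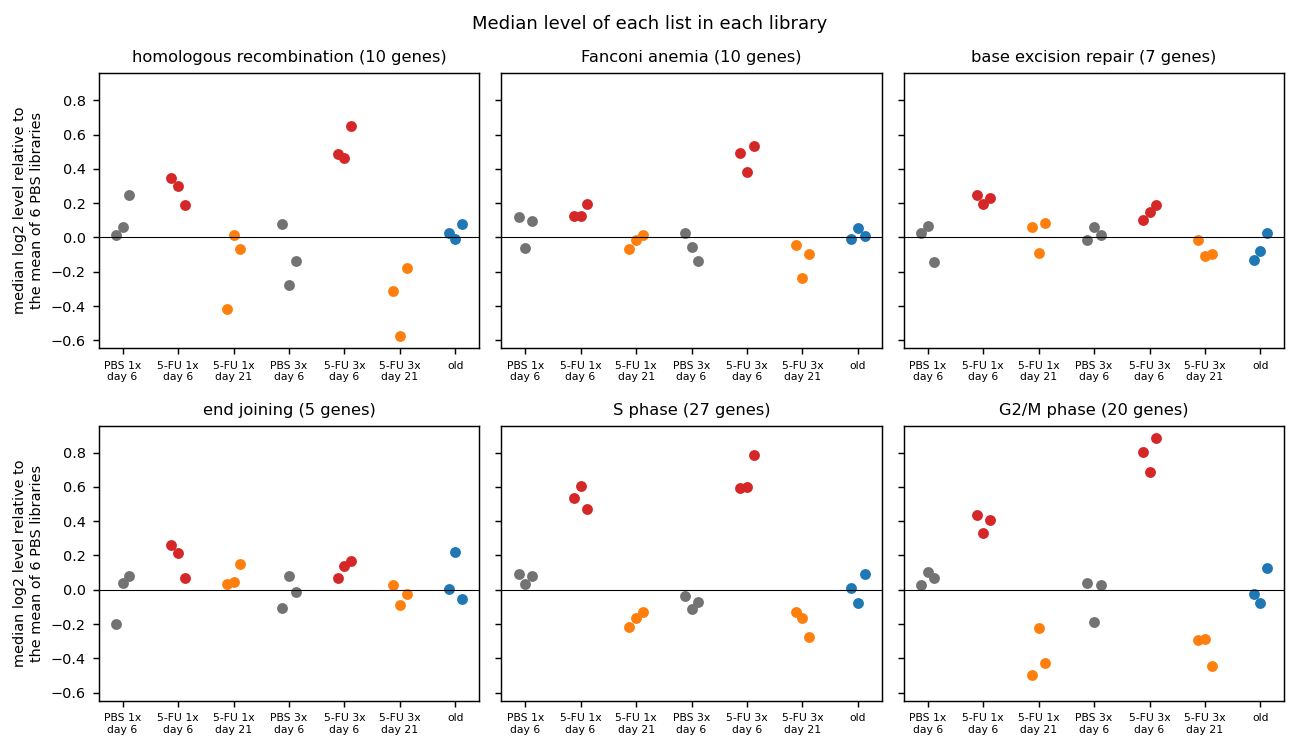
Median log2 level of 4 repair pathways and 2 cell cycle lists in each of the 21 libraries (points), relative to the mean of the 6 PBS libraries; 1x and 3x give the number of administrations, and red points are 5-FU at day 6. The highest red points belong to the cell cycle lists, and those of homologous recombination overlap them in part. The red points of homologous recombination and the Fanconi pathway are higher after 3 administrations than after 1 for the 10 genes of each plotted.

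At day 21 no member differed from PBS by the test. After 5-FU once against PBS once at day 6, 0 of 43 passed in edgeR (0.221% of 12647 genes). An unadjusted p under 0.05 was found in 8 members, beside 1685 of the 12647 genes. DESeq2 called 4 members, and the share of all genes it called is not given here. The nearest in edgeR was Smug1, at 9.67, 9.62 and 8.47 CPM after PBS once and 17.8, 18.2 and 15.0 CPM at day 21, where all libraries lay above those of PBS. Its log2 fold change was 0.87 ± 0.13 (SE, adjusted p = 0.0624). Bard1 and Rad51c had the largest values below 0, −1.88 ± 0.63 (SE, adjusted p = 0.267) and −1.63 ± 0.60 (SE, adjusted p = 0.305). Bard1 was at 0.859, 0.540 and 0.238 CPM and Rad51c at 1.29, 0.511 and 2.79 CPM at day 21, below each PBS once library in both genes. The median of the members was −0.15 and that of all genes −0.01. After 5-FU 3 times against PBS 3 times, 0 of 43 passed (0.0475% of 12632 genes), and DESeq2 called 0. Here 5 members had an unadjusted p under 0.05, beside 1725 of the 12632 genes. The lowest adjusted p was that of Chek1, at 8.07, 8.81 and 9.05 CPM against 11.3, 11.6 and 12.7 CPM after PBS 3 times (−0.46 ± 0.12 SE, adjusted p = 0.202). All 10 homologous recombination genes had values below 0, from −0.42 to −0.01, with none past the threshold. The groups were without overlap for 11 members after 5-FU once (21.0% of all genes) and for 6 after 5-FU 3 times (21.4% of all genes). No PBS group was taken at day 21, so that time and treatment cannot be told apart.

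**Figure D5:**
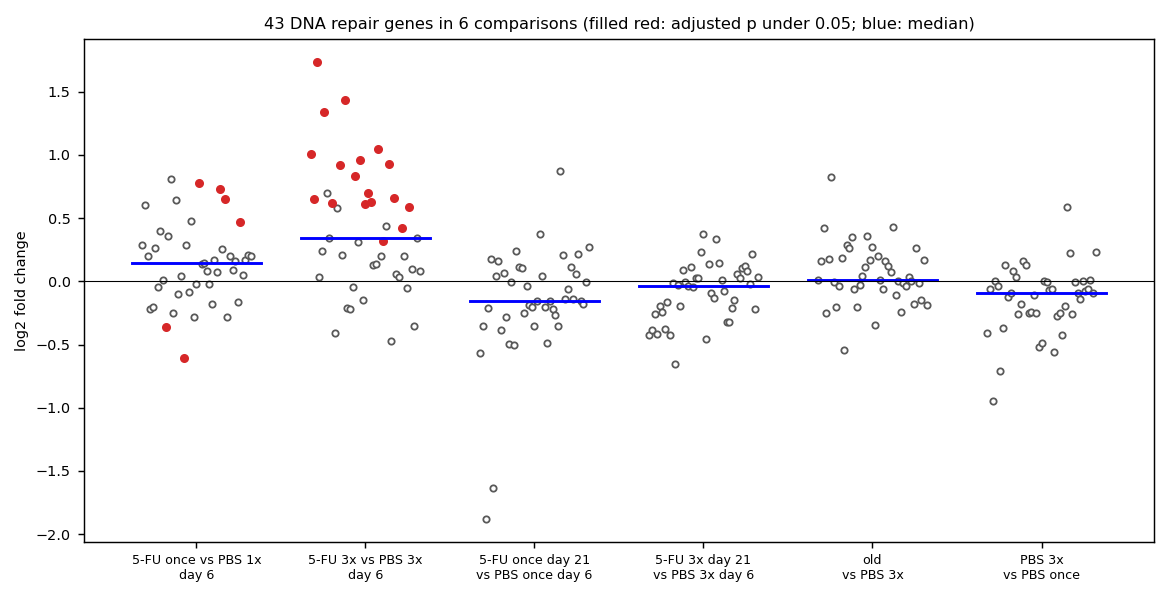
Log2 fold change (y axis) of the 43 members (points, in pathway order from left to right) in 6 comparisons of 3 against 3 libraries; filled red points passed an adjusted p of 0.05 and blue lines are medians. The medians are 0.15 and 0.34 at day 6, −0.15 and −0.04 at day 21, 0.01 in old HSCs and −0.09 between the PBS groups, and filled points occur at day 6.

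From day 6 to day 21 most members that differed fell. After 5-FU once, 19 of 43 members differed (44.2%; 26.0% of 12589 genes), 15 lower at day 21 (13.7% of all genes) and 4 higher (12.3%). In 26 members the groups did not overlap (46.1% of all genes). After 5-FU 3 times, 18 differed, all lower (41.9%; 19.5% of 12553 genes, 10.8% lower), and 26 were without overlap (41.0% of all genes). These comparisons use the same 5-FU libraries of day 6 as above and are not independent of the rises. By the study's methods the gate was widened only early after 5-FU, so the gate and the day cannot be told apart here. After 5-FU once, the suffix of the day 6 columns is also absent at day 21 and goes with the day. The cell cycle genes fell as well, 27 of 27 in S phase and 16 of 20 in G2 and M phase after 5-FU once, and 26 of 27 and 20 of 20 after 5-FU 3 times. Their part in the fall of the repair genes was not tested. Chek1 was at 9.37, 9.66 and 12.9 CPM at day 21 after 5-FU once and 8.07, 8.81 and 9.05 CPM after 5-FU 3 times, with log2 changes from day 6 of −0.94 ± 0.15 (SE, adjusted p = 0.0059) and −1.17 ± 0.14 (SE, adjusted p = 0.00286). Ung was at 8.90, 7.13 and 10.0 CPM after 5-FU once and 7.51, 7.20 and 8.62 CPM after 5-FU 3 times (−1.09 ± 0.15 SE, adjusted p = 0.00336, and −1.26 ± 0.12 SE, adjusted p = 0.00142), below each library of day 6. Tdg was at 182.0, 192.1 and 187.6 CPM after 5-FU once and 179.5, 161.6 and 148.4 CPM after 5-FU 3 times (−0.44 ± 0.07 SE, adjusted p = 0.00679, and −0.88 ± 0.09 SE, adjusted p = 0.00178). Among these 3 genes, the libraries of day 21 and day 6 did not overlap in either series. By pathway, 10 of 20 genes of homologous recombination and the Fanconi pathway differed after 5-FU once and 9 of 20 after 5-FU 3 times, 4 and 3 of 7 in base excision repair, and 1 and 2 of 5 in end joining. Brca2 fell by the test in both series, to 48.3, 43.1 and 57.0 CPM and 47.9, 41.7 and 50.6 CPM at day 21 (−0.96 ± 0.12 SE, adjusted p = 0.00276, and −1.05 ± 0.11 SE, adjusted p = 0.00145). The 4 members higher at day 21 than at day 6 after 5-FU once were Rad52 (0.42), Fance (0.34), Fancg (0.71) and Smug1 (0.61). Rad52 was then at 66.1, 63.3 and 67.9 CPM and Fancg at 69.5, 63.1 and 66.3 CPM. Chek1, Ung, Tdg and Brca2 in both series and Rad52 and Fancg after 5-FU once passed in every fit that left out 1 library. Fance missed the threshold without day 21 replicate 2 or any of the day 6 replicates (adjusted p up to 0.0731), and Smug1 without day 21 replicate 1 or 2 or day 6 replicate 2 or 3 (adjusted p up to 0.0956). After 5-FU once the count of 19 was 8 without day 6 replicate 2, 10 without day 6 replicate 3 and 12 without day 21 replicate 2. The share of all genes called in these fits is not given here.

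In old HSCs no member differed from PBS 3 times in edgeR (0 of 43, beside 0.996% of 12847 genes), and DESeq2 called 0. An unadjusted p under 0.05 was found in 4 members, beside 1434 of the 12847 genes. These 4 were Fanca (−0.54, adjusted p = 0.372), Chek1 (−0.35, adjusted p = 0.371), Pms2 (0.43, adjusted p = 0.412) and Xrcc5 (0.26, adjusted p = 0.351). Xrcc5 was at 113.0, 111.0 and 114.3 CPM and Chek1 at 8.84, 9.34 and 9.94 CPM in old HSCs. Xrcc5 lay above and Chek1 below every library of PBS 3 times. The groups did not overlap for 5 members (16.9% of all genes). The median log2 fold change of the members was 0.01. The old group differs from the controls in age and in having no PBS administration named, which cannot be told apart. Between the control groups, PBS 3 times against PBS once, 0 of 43 passed in edgeR (0.0156% of 12806 genes). An unadjusted p under 0.05 was found in 7 members, beside 1633 of the 12806 genes. DESeq2 called 2 members, both lower after PBS 3 times, and the share of all genes it called is not given here. The values were below 0 in 32 of 43 members, with a median of −0.09, and 10 members did not overlap (20.0% of all genes). Atm had the lowest adjusted p, at 28.7, 33.0 and 25.6 CPM after PBS once and 21.9, 19.3 and 19.6 CPM after PBS 3 times (−0.52 ± 0.12 SE, adjusted p = 0.185). The PBS groups differ in the number of administrations, the age at isolation and the column suffix, which cannot be told apart. The rises after 5-FU were measured against the PBS group of the same number of administrations.

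Over all 7 groups, 23 of 43 members differed in a single test of any difference (53.5%; 37.6% of 13571 genes). The lowest adjusted p-values were those of Chek1 (1.97e-06), Tdg (6.07e-06) and Ung (2.63e-05). The members furthest from a difference were Lig4 (0.972), Fancf (0.927) and Wrn (0.667). Lig4 varied between libraries of one group, from 1.07 to 8.99 CPM in PBS once.

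A further 78 repair genes, listed by pathway, gave the surroundings of the members. After 5-FU once, 13 rose and 3 fell (20.5%, beside 22.2% of all genes tested), and after 5-FU 3 times 19 rose and 4 fell (29.5%, beside 18.1%). Of 26 in homologous recombination and the Fanconi pathway, 7 rose after 5-FU once and 11 after 5-FU 3 times, with none lower, while of 7 in end joining none passed in either. Nearest to a call in end joining after 5-FU once was Dclre1c, the nuclease Artemis, at a log2 fold change of −0.30 (adjusted p = 0.122), followed by Polq, a polymerase of alternative end joining, with 0.57 (adjusted p = 0.157). In homologous recombination and the Fanconi pathway, Usp1, which removes ubiquitin from Fancd2, rose by 0.49 (adjusted p = 0.00263) and Dna2, a resection nuclease, by 0.62 (adjusted p = 0.00310) on the log2 scale. In base excision repair 2 rose and 2 fell, and Fen1, the flap nuclease, and Lig1, the replicative ligase, rose by 0.70 (adjusted p = 0.00278) and 0.45 (adjusted p = 0.0121). The largest change of these 15 genes was below 0, with log2 fold changes from −1.19 to 0.70 and a median of 0.14. After 5-FU 3 times 2 rose and 2 fell as well, with values from −1.98 to 0.92. In damage signalling 2 of 12 rose, Clspn, the adaptor that activates Chek1, by 1.08 (adjusted p = 0.00419) and Rnf168, a ubiquitin ligase at breaks, by 0.34 (adjusted p = 0.0156). In nucleotide excision repair, Rad23b rose by 0.43 (adjusted p = 0.00840) and Ercc4 fell by 0.40 (adjusted p = 0.0281). In mismatch repair, Pms1 had a log2 fold change of 0.33 (adjusted p = 0.105).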

How the data were processed

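RNA of sorted mouse HSCs was amplified with the SMART-Seq v4 kit and made into libraries with Nextera XT, and the 21 libraries came from 7 groups of 3 independent experiments. Per the labels and the study's methods, the authors aligned reads with TopHat2 2.0.13 to mm10 and named Cuffdiff of Cufflinks 2.2.1. The deposited values were raw counts per gene symbol, with 1 column per library. The program that made the counts, its use of strand and its treatment of reads with several alignments are not given in the sources used here.

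Counts were filtered by expression, normalized by trimmed mean of M values and compared by quasi-likelihood in edgeR 4.0.16 (R 4.3.3, limma 3.58.1), fitting only the groups of each comparison, with p-values adjusted over all genes tested by the Benjamini-Hochberg method and a threshold of 0.05. Standard errors were derived from the F statistic. Levels are CPM normalized over all 21 libraries. The floor was 3 counts, which covers counting error only. The fits were tested on simulated data. The libraries of a group were compared for duplicates, and none were found (21 pairs).

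The members and lists were chosen with earlier results of these data known. Values in every library were given for members that passed after 5-FU at day 6, in the interaction or in old HSCs, and for the member of each pathway with the largest change after 5-FU once. Of the other repair genes, the 2 with the lowest adjusted p after 5-FU once were named per pathway, except for 1 in mismatch repair that is not reported here. Values of Smug1 and Atm, and of members at day 21, were added after they had been seen. Alternatives were DESeq2 1.42.0, relative log expression factors, library size without a factor, no filter or at least 10 counts in every library, all 21 libraries in 1 fit, other PBS controls (for day 21 and old HSCs only), the replicate block and leaving out each library. Promoter windows were taken from RefSeq (GRCm38.p6) and exon positions from GENCODE vM21.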

Additional observations from a re-analysis of the deposited data

Results flagged for a closer look

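In 3 members, the day 21 libraries lay on opposite sides of the PBS libraries of day 6 after 1 and after 3 administrations. They did not overlap in either series. In each comparison alone, 21.0% and 21.4% of all genes were without overlap. The share of all genes apart in both and in opposite directions is not given, so the count of 3 is not a result about the members. Blm had a log2 fold change of −0.49 after 5-FU once and 0.33 after 5-FU 3 times, Tdg 0.21 and −0.21, and Parp1 −0.14 and 0.11. None of these values passed the edgeR test, and the difference between the series was not tested. The libraries of PBS once and PBS 3 times, which served as the controls, did not overlap for these 3 genes either.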

How the results depend on the processing

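The members called in the day 6 comparisons with PBS and from day 6 to day 21 were refitted under up to 13 alternatives each, without a change of control. None of these 792 values reversed direction, and 612 stayed past the threshold. Of the day 6 calls against PBS, those past it in all 13 were Chek1 and Tdg after 5-FU once, and Brca1, Fanci, Atr, Blm, Ung and Tdg after 5-FU 3 times. The values of members without a call were not followed across the alternatives. Leaving out 1 library gave 2 to 5 members after 5-FU once, 8 to 12 after 5-FU 3 times, 8 to 17 and 12 to 15 from day 6 to day 21 after 1 and 3 administrations, and 20 to 25 over the 7 groups. Where edgeR called none, DESeq2 called 1 in the interaction, 4 at day 21 after 5-FU once and 2 between the PBS groups, and library size alone and the single fit of all 21 libraries each called 1 at day 21 after 5-FU once. The cause was not tested. With library size alone, the higher share of all calls from day 6 to day 21 after 5-FU 3 times was 63.5% rather than 44.4%, and the median of all genes moved to 0.117, and to −0.111 after 5-FU 3 times at day 6. With the replicate block, 5 members were called after 5-FU once, 14 after 5-FU 3 times, 14 and 16 from day 6 to day 21, 23 over the 7 groups and 0 elsewhere. The share of all genes called in these alternative fits is not given here. The counts therefore do not show a shift particular to the members. Whether same-numbered libraries of different groups come from a shared experiment is not stated. The correlations of their deviations from the group means ran from −0.0499 to 0.0578 over 24 pairs. With 3 libraries per group, small changes of members at low levels, such as Bard1 with 1 count in 1 library, could not be resolved.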
